A study of Mus musculus with 12 samples.

Results

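The genes described here are 8 genes of the MHC class II antigen presentation pathway, chosen by name and matched by Ensembl ID to the deposited count table: Cd74, H2-Aa, H2-Ab1, H2-Eb1, H2-DMa, H2-DMb1, H2-DMb2 and Ciita. They are 8 of the 56941 gene IDs in the table. Compression raised Cd74 from 301 ± 10.2 to 859 ± 121 CPM (counts scaled to library size, mean ± SD, n = 6 libraries per group). None of the other 4 genes tested passed, and H2-Aa, H2-DMb1 and Ciita had too few counts to be tested. The genes of the class II chains had low levels in both groups, with means of 0.147 to 1.33 CPM.

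RNA was sequenced from RAW264.7, an established mouse macrophage line grown on porous inserts, after 24 h in either condition. Control macrophages (n = 6) lay beneath an agarose cushion, and compressed macrophages (n = 6) beneath the same cushion carrying a weight that applied 0.14 kPa. The labels give no difference in genotype or drug between the groups, both came from a single transformed line, and both carried the cushion. Whether the 6 samples of each group were grown separately is not stated. The p-values therefore describe variation among samples that may be purely technical.

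MHC class II molecules are pairs of an alpha and a beta chain that present peptides from the endocytic route to CD4+ T cells. Cd74, the invariant chain, holds new pairs together, blocks their groove and guides them to endosomes, where proteases trim it and the H2-DM heterodimer exchanges the last fragment for peptide. The class II genes, Cd74 and the H2-DM genes share promoter boxes, and the coactivator Ciita acts on them as their common regulator, which interferon gamma induces in macrophages. Cd74 also reaches the cell surface as a receptor for the cytokine MIF, and unstimulated macrophages are known for low class II levels.

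Total counts per library ranged from 33460807 to 40463545. Reads were compared in edgeR, which kept 15001 genes after its filter on low counts. A gene was called when its adjusted p was 0.05 or less. Of the genes tested, 46.4% were called, 24.5% higher and 21.9% lower under compression. This balance depended on scaling: all genes called higher numbered 3677 and all genes called lower 3283, and with library size alone these were 3079 and 4050. Compressed replicate 6 stood apart. The mean chi-square per gene of its counts against the other compressed libraries was 170 to 228, compared with 3.52 to 16.9 among those libraries and 2.19 to 8.27 among controls. Without it, 66% of 15117 genes were called, 33.8% higher and 32.2% lower. All 8 macrophage markers had counts, and their summed level was 5230 to 5635 CPM in control and 6349 to 7638 CPM in compressed libraries. The higher sum was carried mostly by Lyz2, lysozyme (2678 ± 123 and 4204 ± 616 CPM, edgeR adjusted p = 2.25e-05). Itgam (61.8 ± 3.62 and 129 ± 34.7 CPM, edgeR adjusted p = 2.06e-05), Adgre1 (53.8 ± 3.94 and 81.3 ± 14.8 CPM, adjusted p = 6.40e-04) and Mertk (0.308 ± 0.148 and 0.934 ± 0.239 CPM, adjusted p = 4.99e-04) rose as well. Csf1r (1616 ± 38.0 and 1385 ± 195 CPM, edgeR adjusted p = 0.0495), Cd68 (720 ± 22.4 and 640 ± 11.1 CPM, adjusted p = 0.00247) and Fcgr1 (59.1 ± 2.55 and 45.0 ± 3.77 CPM, adjusted p = 7.95e-05) fell. Spi1 was not called (edgeR adjusted p = 0.910).

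Of the 8 genes, 5 passed the filter on low counts: Cd74, H2-Ab1, H2-Eb1, H2-DMa and H2-DMb2. Compression raised 1 of these 5, against the 24.5% of all tested genes called higher, and lowered 0 by edgeR at the adjusted threshold, 0 at an unadjusted p under 0.05 and 0 by DESeq2, against 21.9%. The median log2 fold change of the 5 was 0.19, compared with 0.02 over all tested genes. Without compressed replicate 6, Cd74 remained higher and H2-Eb1 was called lower. The other 3 genes, H2-Aa, H2-DMb1 and Ciita, had too few counts to be tested and are given by their counts.

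**Figure D1:**
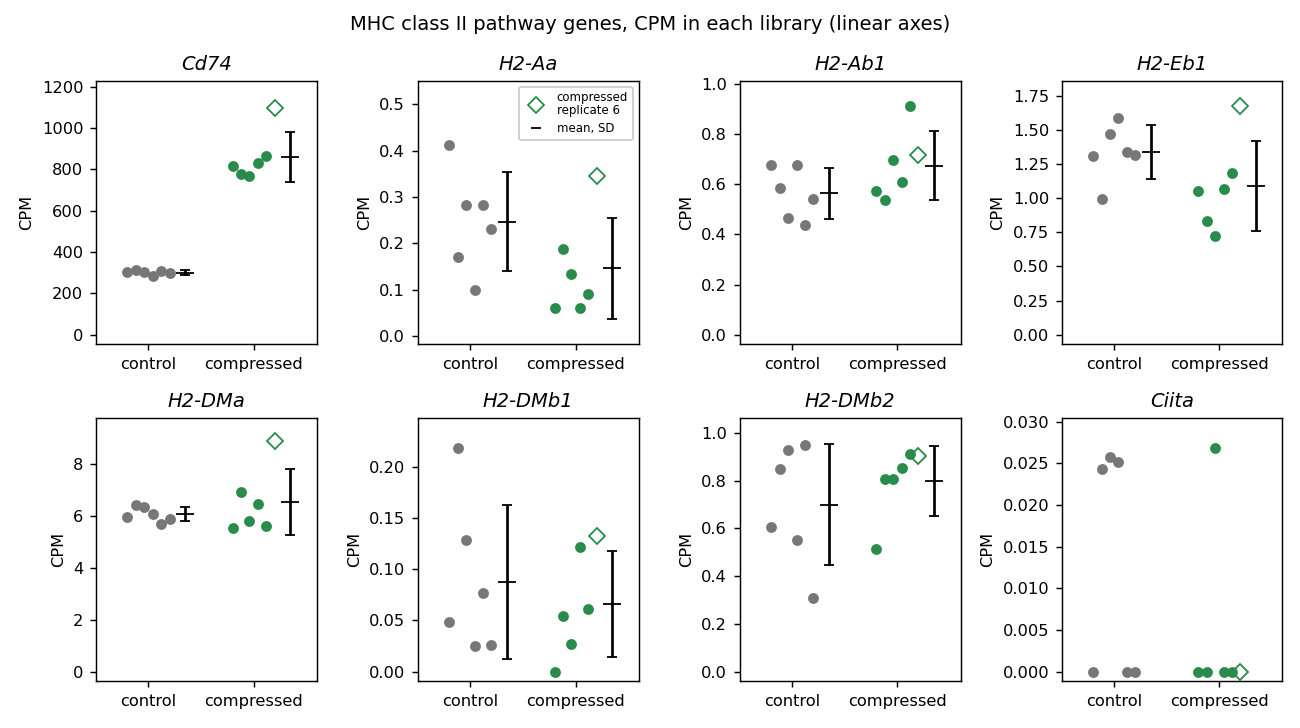
CPM of each of the 8 genes in the 6 control (gray) and 6 compressed (green) libraries on linear axes that differ between panels. Points are libraries, the open diamond is compressed replicate 6, and bars beside the points are the mean and SD, left out for Ciita with its 3 control counts and 1 compressed count. The groups are apart for Cd74 only, with controls at 282 to 313 CPM and compressed libraries at 766 to 1096 CPM.

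Cd74 (ENSMUSG00000024610) encodes the invariant chain and held most of the reads of the pathway, with 71865 counts in control and 181554 in compressed libraries. The lowest, median and highest control libraries were at 282, 302 and 313 CPM, and the lowest, median and highest compressed libraries were at 766, 825 and 1096 CPM. All 6 compressed libraries lay above every control, which was so for 16.5% of all tested genes. The log2 fold change was 1.51 (SE 0.08, 95% interval 1.34 to 1.69, edgeR adjusted p = 5.66e-09), a 2.85-fold increase. Replicate 6 was the highest compressed library, at 1096 CPM. The other 5 had a mean of 812 ± 39.3 CPM, and without replicate 6 the log2 fold change was 1.43 (edgeR adjusted p = 7.75e-17). In bulk RNA, a change in the number of cells of a kind and a change in RNA per cell cannot be told apart.

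Levels of different genes can be compared only per length, so CPM were divided by kilobases of annotated exon. On this scale Cd74 was at 179 ± 6.06 CPM per kilobase in control and 512 ± 72.2 in compressed macrophages. It ranked 213 from the top of 14657 genes with a length in control and 82 in compressed macrophages. The other tested genes lay far below. In control macrophages H2-DMa was at 1.76 ± 0.0817, H2-Eb1 at 0.686 ± 0.102, H2-DMb2 at 0.400 ± 0.145 and H2-Ab1 at 0.219 ± 0.0402 CPM per kilobase. In compressed macrophages they were in the same order, at 1.89 ± 0.367, 0.561 ± 0.170, 0.457 ± 0.0844 and 0.263 ± 0.0529 CPM per kilobase. Between neighbors in this order, the ranges of mean ± SD overlapped for H2-DMb2 and H2-Ab1 in control and for H2-Eb1 and H2-DMb2 in compressed macrophages, and for no other pair of neighbors.

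**Figure D2:**
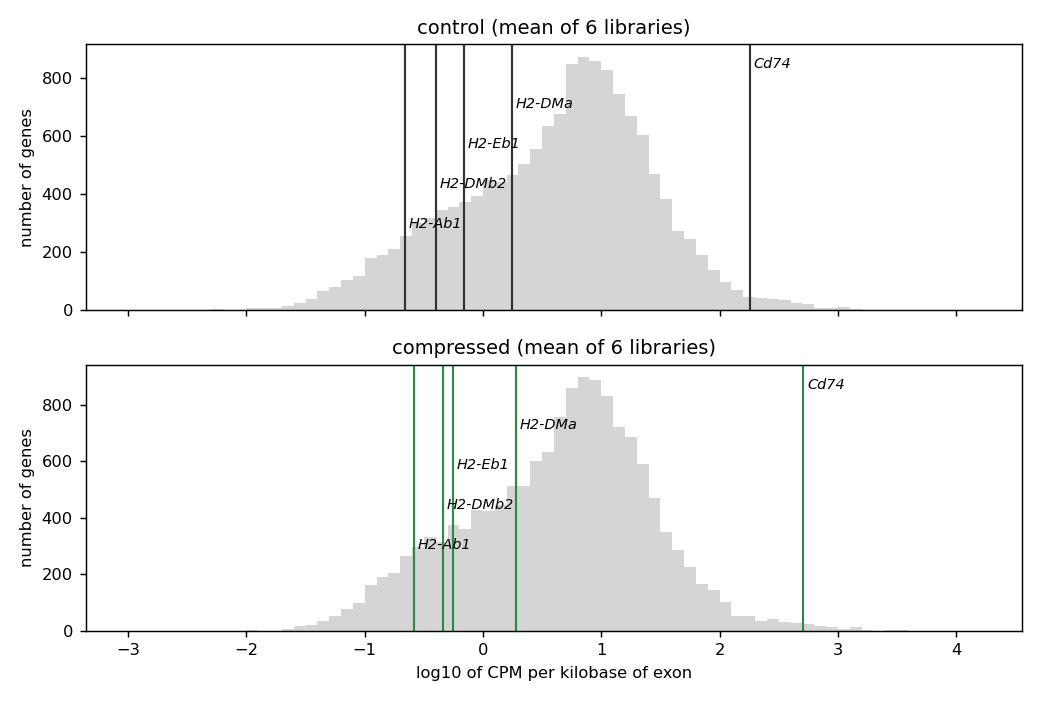
Distribution of the level per length over genes in control (top) and compressed (bottom) macrophages, with the 5 tested class II pathway genes as vertical lines. The horizontal axis is the log10 of CPM per kilobase of exon and the vertical axis the number of genes. Cd74 is in the upper tail in both groups (179 and 512 CPM per kilobase), and the other 4 genes are in the lower part.

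The 3 chain genes were H2-Aa, the alpha chain of the I-A molecule, H2-Ab1, its beta chain, and H2-Eb1, the beta chain of the I-E molecule. H2-Ab1 (ENSMUSG00000073421) had 135 control and 142 compressed counts. Its lowest, median and highest levels were 0.437, 0.562 and 0.679 CPM in control and 0.538, 0.654 and 0.913 CPM in compressed libraries. The groups overlapped, with 3 compressed libraries above every control. Its log2 fold change of 0.25 (SE 0.17, 95% interval -0.11 to 0.62) did not pass the test (edgeR adjusted p = 0.239), and the interval includes a small fall as well as a rise.

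H2-Eb1 (ENSMUSG00000060586) had 318 control and 230 compressed counts. Control libraries were at 0.997, 1.32 and 1.58 CPM (lowest, median and highest) and compressed libraries at 0.726, 1.06 and 1.67 CPM. The highest of all 12 libraries was compressed replicate 6, and 2 compressed libraries lay below every control. The log2 fold change was -0.29 (SE 0.19, 95% interval -0.69 to 0.11, edgeR adjusted p = 0.225) and did not pass the test. Without replicate 6 it was -0.46 (edgeR adjusted p = 0.0127), so that a single library decided this call.

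H2-Aa (ENSMUSG00000036594) was below the filter, with 59 control and 32 compressed counts in all. Its lowest, median and highest levels were 0.100, 0.257 and 0.412 CPM in control and 0.0603, 0.113 and 0.345 CPM in compressed libraries. The groups overlapped, with 3 compressed libraries below every control and replicate 6 the highest compressed library. The ratio of summed counts, compressed over control and scaled by library size, was 0.614 (95% interval 0.386 to 0.960, counting error only). With no filter on low counts its log2 fold change was -0.71 and was not called (edgeR adjusted p = 0.281).

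RAW264.7 cells come from BALB/c mice, whose H2 alleles differ from those of the C57BL/6 reference genome. How far reads of these polymorphic chain genes were lost for that reason was not tested, and their levels set beside those of other genes carry this limit.

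The balance of Cd74 and the chains was then read in each library. Within each library, the level of Cd74 per kilobase was divided by the summed level of H2-Aa, H2-Ab1 and H2-Eb1 per kilobase. This ratio was 187 ± 28.7 in control (152 to 237) and 606 ± 66.9 in compressed libraries (519 to 675). The lowest compressed library was above the highest control, as for Cd74 alone. The summed chains were at 0.971 ± 0.111 CPM per kilobase in control and 0.862 ± 0.212 in compressed libraries, and these ranges overlapped.

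To compare the genes with each other independently of library scaling, log2 ratios of CPM were taken within each library for all 10 pairs of the 5 tested genes. Compression raised the log2 ratio of Cd74 by 1.27 over H2-Ab1, by 1.82 over H2-Eb1, by 1.42 over H2-DMa and by 1.26 over H2-DMb2. In each of these 4 pairs the groups did not overlap, the exact permutation p was 0.00216, the smallest that 6 against 6 libraries can give, and the value adjusted over the 10 pairs was 0.00541. All 4 pairs share Cd74, whose own level already separated the groups, as that of 16.5% of all tested genes did in this direction. They are therefore not 4 independent results. None of the other 6 pairs passed in the exact permutation test. The nearest were H2-Ab1 over H2-Eb1, with a difference of 0.55 (exact permutation p = 0.0260, adjusted p = 0.0519), and H2-Eb1 over H2-DMa, with a difference of -0.40 (exact permutation p = 0.0390, adjusted p = 0.0649). Without compressed replicate 6 the pair H2-Ab1 over H2-Eb1 differed by 0.66 and passed (exact permutation, adjusted p = 0.0260). Without control replicate 2 both pairs passed (exact permutation, adjusted p = 0.0216 and 0.00866).

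**Figure D3:**
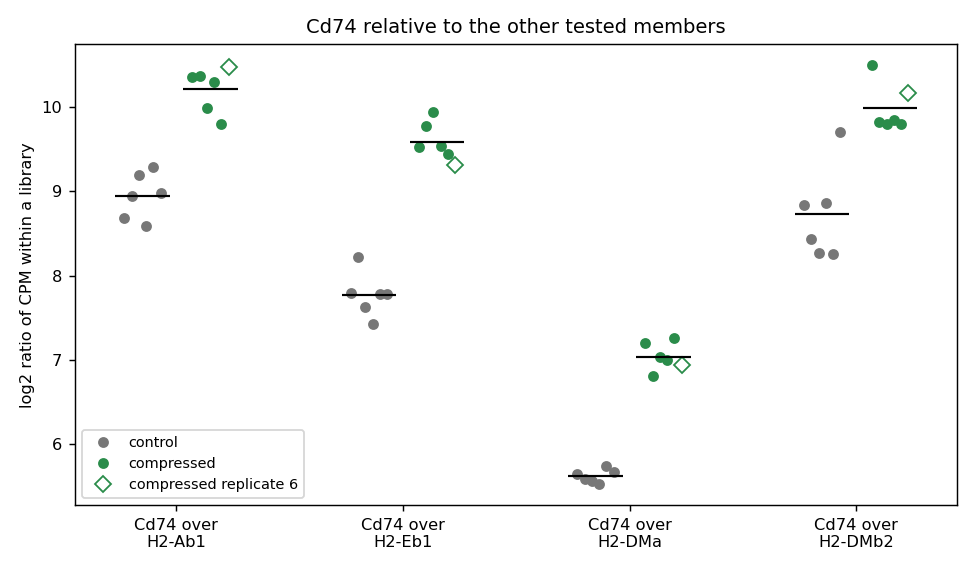
Log2 ratio of the CPM of Cd74 to that of each other tested gene within each library, for 6 control (gray) and 6 compressed (green) libraries. Horizontal bars are group means and the open diamond is compressed replicate 6. The compressed libraries lie above all controls in each of the 4 ratios, by 1.26 to 1.82 in the mean.

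H2-DMa and the 2 beta chain genes H2-DMb1 and H2-DMb2 encode the H2-DM heterodimer, the peptide exchange factor. H2-DMa (ENSMUSG00000037649) had 1447 control and 1385 compressed counts. Control libraries were at 5.68, 6.02 and 6.42 CPM (lowest, median and highest) and compressed libraries at 5.52, 6.13 and 8.86 CPM. The groups overlapped in both directions, with 3 compressed libraries above and 2 below every control. The log2 fold change of 0.11 (SE 0.11, 95% interval -0.12 to 0.34, edgeR adjusted p = 0.441) did not pass the test, and without replicate 6, the highest library, it was -0.0016 (edgeR adjusted p = 0.985). In the annotation, 360 of the 3448 exon bases of H2-DMa, or 10.4%, lie over exons of Brd2 on the opposite strand. Brd2, a bromodomain protein, was at 368 ± 4.24 CPM in control and 373 ± 19.4 CPM in compressed libraries, with a log2 fold change of 0.02 that was -0.04 when scaled by library size alone. Whether counting used the strand is not given, so reads in the shared bases cannot be assigned.

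H2-DMb2 (ENSMUSG00000037548) had 167 control and 169 compressed counts. It was at 0.309, 0.728 and 0.951 CPM in control (lowest, median and highest) and at 0.513, 0.830 and 0.913 CPM in compressed libraries. No compressed library lay outside the control range. Its log2 fold change was 0.19 (SE 0.24, 95% interval -0.32 to 0.71, edgeR adjusted p = 0.540), and this wide interval includes a change of either sign.

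H2-DMb1 (ENSMUSG00000079547) was below the filter, with 21 control and 14 compressed counts. It was at 0.0251, 0.0628 and 0.219 CPM in control (lowest, median and highest) and at 0, 0.0573 and 0.133 CPM in compressed libraries, which overlapped. The ratio of summed counts was 0.755 (95% interval 0.355 to 1.56, counting error only). The 2 beta chain genes are close paralogs, so the division of reads between them is uncertain.

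Ciita (ENSMUSG00000022504), the coactivator of the class II genes, was hardly detected. It had 3 counts in all controls together and 1 in all compressed libraries, with 3 control and 5 compressed libraries at 0. Both groups are at or under the 3 counts that were taken as the floor, so no fold is given. Of its 9535 exon bases, 329, or 3.45%, overlap Dexi on the opposite strand. At this depth a difference in Ciita was not detectable.

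Promoter windows were searched for the boxes known from class II genes. RefSeq promoter windows of GRCm38.p6, which differs from the GRCm39 build of the counts, held 5 of the 8 genes (H2-Aa, H2-Eb1, H2-DMa, H2-DMb1 and H2-DMb2). The windows run from 250 bases before to 50 bases after the start site. Each was searched on both strands for the Y box core TGATTGG, for the X box motif AACNGATG and for the palindrome TGACGTCA, which reads the same on both strands and is a CRE-like octamer. The 3 windows printed here, from 150 to 15 bases before the start site, belong to a chain gene of each molecule and to the better-counted H2-DM beta gene, with matches in capitals. They are H2-Aa on the minus strand of chr17:34287838-34287973, H2-Eb1 on the plus strand of chr17:34305717-34305852 and H2-DMb2 on the plus strand of chr17:34145099-34145234.
H2-Aa: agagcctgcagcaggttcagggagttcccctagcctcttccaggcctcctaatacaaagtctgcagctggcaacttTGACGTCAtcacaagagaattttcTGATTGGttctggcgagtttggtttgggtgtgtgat
H2-Eb1: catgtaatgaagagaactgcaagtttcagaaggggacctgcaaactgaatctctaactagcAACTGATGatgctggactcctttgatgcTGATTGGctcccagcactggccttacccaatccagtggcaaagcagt
H2-DMb2: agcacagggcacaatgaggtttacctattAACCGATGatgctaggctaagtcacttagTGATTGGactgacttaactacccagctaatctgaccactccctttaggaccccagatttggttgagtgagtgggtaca

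H2-Eb1, H2-DMb1 and H2-DMb2 held both the X box motif and the Y box core, with 20, 21 and 21 bases between them. H2-Aa held the Y box core and the octamer. None of the 3 motifs was in the 2 windows of H2-DMa (chr17:34122582-34122881 and chr17:34125268-34125567). Whether boxes lie at any other start site of H2-DMa was not tested. Over 32851 promoter windows of the same length, TGATTGG was in 7.82%, AACNGATG in 2.32%, TGACGTCA in 1.79% and both of the first 2 in 0.186% (61 windows). A match is a run of letters and not a measured binding site. H2-Eb1 and H2-DMb2, which share both boxes, had log2 fold changes of -0.29 and 0.19, neither of which passed the test.

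Beside the 8 genes, 6 further class II entries of the H2 region were read, among them H2-Oa and H2-Ob, which encode the H2-DO heterodimer, an inhibitor of H2-DM. H2-Oa had 84 control and 107 compressed counts and was at 0.353 ± 0.112 CPM in control and 0.503 ± 0.127 CPM in compressed libraries. Its log2 fold change of 0.52 (SE 0.23) did not pass the test (edgeR adjusted p = 0.0838). Without control replicate 4 it was 0.67 and passed (edgeR adjusted p = 0.0316). In the annotation it overlaps BC051537 on the opposite strand. H2-Ob had 25 control and 46 compressed counts, under the filter, and lay at 0.105 ± 0.0507 CPM in control and 0.220 ± 0.0493 CPM in compressed libraries. The groups overlapped, with 3 compressed libraries above every control. With no filter on low counts its log2 fold change was 1.03 and it was called (edgeR adjusted p = 0.0307), as it was by DESeq2 (adjusted p = 0.0437). Both windows held the Y box core and not the X box motif. H2-Ea, H2-Eb2, H2-Pa and H2-Pb had 0 counts in all 12 libraries, which allows up to 0.00667 CPM (3 counts over all libraries). The older symbol of H2-Ea, H2-Ea-ps, is that of a pseudogene. Whether the other entries at 0 are functional genes was not examined.

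The regulators came next. Of 21 genes of the class II enhanceosome (the RFX, NF-Y and CREB factors that bind the promoter boxes) and of the signals that control Ciita, 2 were called higher and 2 lower, against 24.5% and 21.9% of all tested genes, and their median log2 fold change was 0.003. Without replicate 6 the counts were 5 and 4, against 33.8% and 32.2%. Jak2, a kinase of the interferon gamma receptor, rose from 43.6 ± 1.46 to 83.4 ± 14.2 CPM (log2 fold change 0.93, SE 0.10, edgeR adjusted p = 5.44e-06), with all 6 compressed libraries above every control. Nfyc, a subunit of the Y box factor NF-Y, fell from 35.5 ± 1.25 to 26.4 ± 0.780 CPM (log2 fold change -0.43, SE 0.04, edgeR adjusted p = 1.11e-06), with all 6 below every control, which was so for 17% of all tested genes. Irf1, an interferon-induced transcription factor, fell from 20.3 ± 1.46 to 17.7 ± 0.986 CPM (log2 fold change -0.20, edgeR adjusted p = 0.0133). Prdm1, a repressor of Ciita, rose from 2.49 ± 0.170 to 3.30 ± 0.781 CPM (log2 fold change 0.41, edgeR adjusted p = 0.0388). This last call was lost in 10 of the 12 fits that left out a library (edgeR adjusted p up to 0.0916).

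Rfx5 and Rfxap were not called. Rfx5, the DNA-binding subunit of the X box factor, had a log2 fold change of 0.14 (edgeR adjusted p = 0.379), and without replicate 6, in which it was at 20.4 CPM, of 0.26 (edgeR adjusted p = 3.10e-06). Rfxap, its partner, had one of 0.19 (edgeR adjusted p = 0.181).

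A list of 14 genes of endolysosomal antigen processing, mostly proteases, was read next. All 14 were tested, 3 were called higher, 2 lower and 9 in neither direction, against 24.5% and 21.9% of all tested genes called higher and lower. Without replicate 6 the counts were 4 and 3, against 33.8% and 32.2%. The median log2 fold change was 0.09. The proteases Ctsa, Ctsd and Ctsh rose. Ctsa rose from 845 ± 25.2 to 1090 ± 32.5 CPM (log2 fold change 0.37, SE 0.04, edgeR adjusted p = 4.89e-06), Ctsd from 770 ± 24.9 to 975 ± 197 CPM (0.34, SE 0.10, edgeR adjusted p = 0.0147) and Ctsh from 2.45 ± 0.185 to 3.47 ± 0.746 CPM (0.51, SE 0.13, edgeR adjusted p = 0.00682). In replicate 6 Ctsd was at 1369 CPM, and without that library its log2 fold change was 0.22. Ifi30, the lysosomal thiol reductase that unfolds antigens, fell from 378 ± 14.3 to 283 ± 40.8 CPM (log2 fold change -0.42, SE 0.08, edgeR adjusted p = 6.76e-04). Ctsc, a dipeptidyl peptidase, fell from 92.7 ± 2.58 to 82.4 ± 3.86 CPM (log2 fold change -0.17, SE 0.04, edgeR adjusted p = 0.00542). Ctss, the main protease of late invariant chain processing, was at 459 ± 18.5 and 490 ± 78.4 CPM (log2 fold change 0.09, edgeR adjusted p = 0.399), and Lgmn, an asparaginyl endopeptidase, had a log2 fold change of 0.11 (edgeR adjusted p = 0.233).

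A further list held genes for class II turnover and for the tetraspanins that sit with class II in the membrane. Of its 9 genes, 8 were tested, 6 were called higher and 0 lower by edgeR, with 0 lower at an unadjusted p under 0.05 and 0 by DESeq2. Of all tested genes, 24.5% were called higher and 21.9% lower. The median log2 fold change of the 8 was 0.49. Without replicate 6, 6 were called higher and 2 lower, Marchf8 (log2 fold change -0.08) and Cd63 (-0.15). The largest changes in the list were those of Cd53, a tetraspanin of leukocytes, and Cd83, which keeps class II at the surface. Cd53 rose from 420 ± 13.7 to 722 ± 73.6 CPM (log2 fold change 0.78, SE 0.06, edgeR adjusted p = 3.05e-07) and Cd83 from 22.4 ± 0.761 to 37.1 ± 2.16 CPM (0.73, SE 0.05, edgeR adjusted p = 3.88e-08). The tetraspanins Cd81, Cd9, Cd37 and Cd82 rose by log2 fold changes of 0.55, 0.55, 0.44 and 0.40, and in all 6 genes every compressed library was above every control, as in 16.5% of all tested genes. Marchf8, a ubiquitin ligase that lowers surface class II, was at 89.8 ± 2.37 and 80.4 ± 11.7 CPM and was not called (edgeR adjusted p = 0.168). Its relative Marchf1 had 8 counts in each group.

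Cd74 as a receptor works with Cd44 and with chemokine receptors. Of 6 genes of this route, 4 were tested, 2 were called higher and 0 lower by edgeR, with 0 lower at an unadjusted p under 0.05 and 0 by DESeq2, beside 24.5% higher and 21.9% lower over all tested genes. Their median log2 fold change was 0.33. Cd44, the signaling partner, rose from 511 ± 16.2 to 668 ± 33.2 CPM (log2 fold change 0.39, SE 0.05, edgeR adjusted p = 9.34e-06). Ddt, a ligand related to MIF, rose from 5.84 ± 0.481 to 9.58 ± 2.59 CPM (log2 fold change 0.71, SE 0.14, edgeR adjusted p = 9.19e-04). In both genes all 6 compressed libraries were above every control, which held for 16.5% of all tested genes. Mif itself was at 821 ± 23.4 and 995 ± 250 CPM and was not called (log2 fold change 0.28, edgeR adjusted p = 0.0794). Without replicate 6, in which it was at 1503 CPM, its log2 fold change was smaller, 0.12, and was called (edgeR adjusted p = 0.00119). Cxcr4 was at 1.00 ± 0.163 and 1.03 ± 0.187 CPM, Cxcr2 had 36 control and 21 compressed counts, and Ackr3 had 0 counts.

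**Figure D4:**
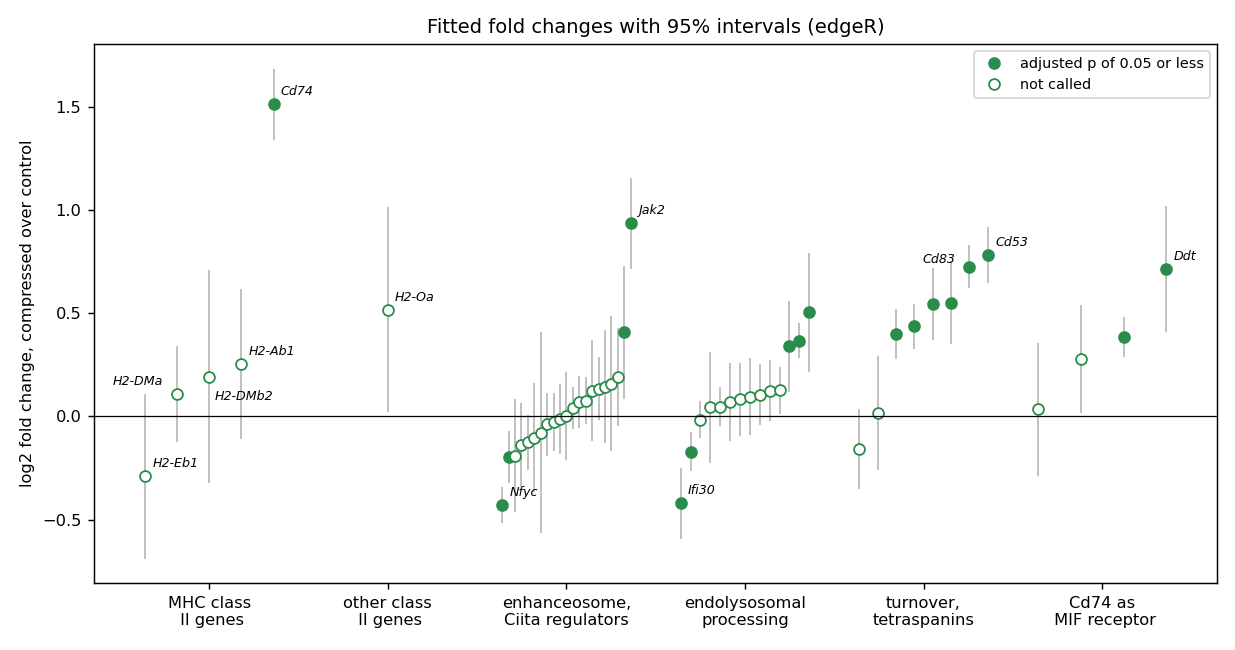
Log2 fold changes, compressed over control, of the tested genes of the class II group and of 5 lists of related genes, sorted within each list. Circles are edgeR estimates, filled where the adjusted p was 0.05 or less, and vertical lines are unadjusted 95% intervals. Cd74 lies at 1.51, above all other genes shown, and the remaining 4 class II genes have intervals that include 0.

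The genes whose pattern was most like that of Cd74 were sought among 12233 genes whose mean was 1 CPM or more, by the root mean square difference of centred log2 CPM over the 12 libraries. The nearest were Nfkbia (0.0691), Dusp5 (0.0768), Pim2 (0.0785), Anxa2 (0.0880) and Lxn (0.0944 on the log2 scale). Nfkbia, an inhibitor of NF-kB, rose from 160 ± 3.37 to 483 ± 100 CPM, and Anxa2, a membrane-binding annexin, from 526 ± 17.9 to 1355 ± 150 CPM. The log2 fold changes of these 5 genes were 1.37 to 1.59. None of the 5 is a gene of the class II group or of the lists above. Of the class II genes other than Cd74, only H2-DMa and H2-Eb1 had a mean of 1 CPM or more. The others could not appear. The measure includes the difference between groups, so a gene without a like rise could not be near. Nothing is concluded from this absence.

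Markers of other cell types were read beside these results. For B cells, the sum of 5 markers was 0.0727 to 0.155 CPM in control and 0.0531 to 0.122 CPM in compressed libraries, and the defining marker Ms4a1 had 0 counts. For T cells, the sum of 4 markers was 0 to 0.0773 and 0 to 0.108 CPM, with Cd3e and Cd8a at 0 counts. Of 6 dendritic cell markers none was at 0 counts in all libraries, and their sum was 5.45 to 6.83 CPM in control and 8.49 to 17.8 CPM in compressed libraries. It consisted mostly of Itgax, an integrin that macrophages also express, which rose with a log2 fold change of 1.24 (edgeR adjusted p = 8.41e-05). Zbtb46 rose as well (log2 fold change 0.33, edgeR adjusted p = 0.0189). The lowest compressed sum of dendritic cell markers, 8.49 CPM, was that of replicate 6, in which Itgax was at 6.05 CPM. For fibroblasts and epithelium, the sum of 5 markers was 0.0771 to 0.292 and 0.0531 to 0.332 CPM. The part of these markers in the Cd74 result was not tested.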

How the data were processed

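RNA from 6 control and 6 compressed RAW264.7 samples was sequenced from directional, mRNA-enriched libraries. Per the submitters' processing notes, reads were aligned with STAR 2.7.2 to GRCm39. The authors deposited raw counts per Ensembl gene, without normalization. For the counting program, strand setting and annotation release, nothing is given in the sources used here. Names and exon lengths came by ID from GENCODE M21 (GRCm38), for 51948 of 56941 IDs.

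The count table was fitted in edgeR 4.0.16 under R 4.3.3 (filterByExpr, minimum count 10, TMM scaling, quasi-likelihood F test on condition, Benjamini-Hochberg over all tested genes). Each SE was obtained by dividing the size of the log2 fold change by the root of F. CPM are on TMM-scaled library sizes, and ratios used a prior count of 2. Intervals of count ratios are exact binomial intervals on counts summed over the libraries of each group. They cover counting error only and leave out variation between libraries. These reads carry no molecular identifiers. Ratios were compared by a two-sided exact permutation test over 924 splits in Python 3.11.15 with SciPy 1.17.1. The edgeR fit was also run on simulated counts with few changed genes and no deviant library. That run cannot show how the fit behaves with compressed replicate 6 or with as many changed genes as here. Alternatives were DESeq2 1.42.0, RLE factors, library size alone, no filter, a mean normalized count over 50, an adjusted p of 0.01, a prior count of 0.5, replicate number as a block and leaving out each library.

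All 8 genes are named. From each list of related genes, called genes, the 4 with the largest change and genes against the direction of most of their list are named, with the 5 genes most like Cd74. Rfx5, Rfxap, Ctss, Lgmn, Mif, Cxcr4, Brd2 and H2-Oa were also named. Cst3, Ctsz, Jak1, Nfya and Ep300 were named for their levels in replicate 6. Some genes of the lists are not reported here. The genes and lists were chosen with earlier results of these data known.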

Additional observations from a re-analysis of the deposited data

Results flagged for a closer look

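In 15 of 66 groups of 6 libraries, the highest or lowest library stood apart from the rest by more than Dixon's 95% critical value for a gap as a share of the group's range. Chance gives about 1 in 20 for independent groups, but these groups share the same libraries, so that rate is only a rough guide. The groups cover the class II genes and part of the related genes. Cst3, Cd63 and Ctsz, in which replicate 6 was also the highest library, were not among them. Replicate 6 was the lowest compressed library for Jak1 (133 CPM, next 222), Nfya (86.9, next 132), Ep300 (48.3, next 128) and Marchf8 (56.9, next 82.1). These genes were not among the groups covered either, so its deviation ran in both directions. Of the 15, 12 were compressed replicate 6, and no cause was tested.

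Among the class II genes, Cd74 in compressed replicate 6 was at 1096 CPM, compared with 863 in the next library. H2-DMb2 in compressed replicate 1 was at 0.513 CPM (next 0.806). Ciita in compressed replicate 3 was at 0.0269 CPM, which is its 1 compressed count.

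Among the related genes, replicate 6 was highest for Mif (1503 CPM, next 919), Ctsd (1369, next 968), Cd9 (946, next 705), Ctss (644, next 491), Lgmn (464, next 376), Ifi30 (362, next 285), Cd82 (118, next 99.8), Cd81 (50.02, next 35.2), Rfxap (29.3, next 19.9) and Ddt (14.8, next 9.01 CPM). Among the flagged groups, replicate 6 was lowest for Rfx5 (20.4 CPM, next 34.7). Ctsh was lowest in control replicate 5 (2.08 CPM, next 2.45).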

How the results depend on the processing

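Cd74 was called higher under every alternative run, with log2 fold changes of 1.43 to 1.54 when a library was left out and of 1.45 to 1.52 otherwise. With the replicate number as a block, 1 of the tested class II genes was called higher (Cd74, edgeR adjusted p = 4.05e-06) and 0 lower; same-numbered libraries did not deviate together (correlations -0.115 to 0.0400), so the numbers were not taken as pairs, and under the block all genes called higher numbered 3299 and all genes called lower 3094. Leaving out a library gave 0 to 1 class II genes called lower, log2 fold changes of -0.46 to -0.19 for H2-Eb1 and of -0.0016 to 0.15 for H2-DMa. The further class II genes called higher numbered 1 by DESeq2 and with no low-count filter, and 0 to 1 when a library was left out. For the enhanceosome list, 1 gene was called higher with library size alone, with no filter and at an adjusted p of 0.01, and 1 to 5 when a library was left out. Its genes called lower were 1 at an adjusted p of 0.01 and 2 to 4 when a library was left out. For turnover and tetraspanins, 0 to 2 were called lower when a library was left out. Uncalled values near 0 changed sign: Brd2 (-0.0438) and Cxcr4 (-0.0284) with library size alone, and, when a library was left out, Cxcr4 (-0.0578 to 0.0969), Ctss (-0.00045 to 0.13), H2-Ab1 over H2-DMb2 (-0.17 to 0.18) and H2-DMa over H2-DMb2 (-0.27 to 0.0321). The causes were not tested. Depth limits H2-Aa, H2-DMb1 and Ciita, which have 59 counts or fewer in a group.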
